A study of Mus musculus with 6 samples.

Results

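The 10 genes described here encode transcription factors of the heart: Gata4, Gata6, Nkx2-5, Tbx5, Tbx20, Hand2, Mef2a, Mef2c, Mef2d and Srf. They were taken by name, and they are 10 of the 22281 features counted in a Drop-seq study of adult mouse hearts. Drop-seq captures single cells in droplets with barcoded beads and counts the molecules of each gene by unique molecular identifiers (UMIs). The YAP5SA hearts were of the genotype Yap5SA+/tg; Myh6-MCM, in which tamoxifen turns on, in cardiomyocytes, a form of YAP that the Lats kinases cannot phosphorylate. The Control hearts were Myh6-MCM, and so carried the same tamoxifen-activated Cre recombinase (MerCreMer) under the cardiomyocyte promoter of Myh6. All hearts were adult and all had tamoxifen. Each genotype had 3 libraries, 2 of dissociated cardiac tissue, in which the cardiomyocyte and non-cardiomyocyte fractions were joined again, and 1 of the cardiomyocyte fraction alone (enriched). Values of single libraries are given in the order tissue-1, tissue-2, enriched for YAP5SA and tissue-2, tissue-3, enriched for Control. Whether a library held 1 heart or several is not given in the sources used here, so p-values measure the spread between these libraries.

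GATA4 and GATA6 are zinc finger proteins, NKX2-5 is a homeodomain protein, TBX5 and TBX20 belong to the T-box family and HAND2 to the basic helix-loop-helix family. MEF2A, MEF2C, MEF2D and SRF are MADS-box proteins. They bind together at the enhancers of heart genes, build the heart in the embryo and keep contractile genes active in the adult, and several of them turn fibroblasts into cardiomyocyte-like cells when they are supplied together. YAP does not bind DNA itself and acts through the TEAD transcription factors.

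The 6 libraries held 21706 cells and from 3382656 to 13483791 UMIs each, and 10 cell barcodes occurred in more than 1 library. Cardiomyocytes, the authors' clusters CM1, CM2, CM3 and YAP5SAcm, numbered 1629 in YAP5SA and 2817 in Control. Of these, 896 lay in the cluster YAP5SAcm in YAP5SA and 99 in Control, so different clusters held most of the class in the 2 genotypes. The summed level of 7 cardiomyocyte markers in the class was 21973 to 27353 CPM (UMIs scaled to the same total in each library) in the YAP5SA libraries and 32716 to 55817 CPM in the Control libraries. The epicardial class carried more of the fibroblast markers (10395 CPM) than of its own (5993 CPM), and the monocyte class more of the macrophage markers (15106 CPM) than of its own (1460 CPM). The other 6 classes carried their own markers most. Of the Control libraries, tissue-2 stood apart in its cardiomyocytes: Nppa had 33247 scaled CPM there, against 507 in tissue-3 and 527 in the enriched library. Its median mitochondrial share was 8.10%, against 16.7% and 14.3%, and 8.30% to 9.92% in YAP5SA. Results that rest on it are given without it as well. Scaled CPM are CPM after TMM scaling. Yap1 had 37.4, 32.3 and 20.8 scaled CPM in the cardiomyocytes of the 3 YAP5SA libraries, and 20.1, 22.4 and 21.7 in those of the 3 Control libraries (log2 fold change 0.46, SE 0.29, edgeR adjusted p = 0.275). It is not known from the labels if RNA from the transgene adds to Yap1 counts, so this is no check of the genotypes.

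The first comparison set YAP5SA cardiomyocytes against Control cardiomyocytes, and asked whether RNA of the heart's own transcription factors differed between them. Of the 10 genes, Tbx20 alone passed the test, at a higher level in YAP5SA (92.6 ± 11.6 scaled CPM in YAP5SA, 45.4 ± 16.1 in Control; SD, n = 3 libraries each). For Gata4, Gata6, Nkx2-5, Tbx5, Hand2 and Srf, the estimates lay between -0.41 and 0.21 on the log2 scale, with standard errors of 0.29 to 0.57. Within the MEF2 family, Mef2a and Mef2c had estimates below 0 and Mef2d one above 0, and none of them passed. All 10 were measured well enough to be tested. The test was edgeR's quasi-likelihood test on UMIs summed per library, with preparation and genotype as terms and p-values adjusted by Benjamini-Hochberg over 10926 genes; calls were made under 0.05. The background was high: 13.9% of all genes tested were called higher and 12.5% lower in YAP5SA, 26.4% in all, so 1 call among 10 genes is no more than the share of all genes. The median of the absolute log2 fold change was 0.39 over the 10 genes and 0.78 over all genes.

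TMM scaling assumes that most genes do not change. With library totals alone, all genes together had a median log2 fold change of 0.87 in place of 0.04, and 4089 genes were called higher and 429 lower, in place of 1518 and 1370. All 10 genes then had estimates above 0, and Tbx20 (1.87) and Mef2d (1.67) were called. Relative to the median of all genes, the 10 values kept close to those with TMM: 0.9996 against 1.02 for Tbx20, 0.79 against 0.76 for Mef2d, and -0.85 against -0.89 for Mef2a. Changes below are therefore relative to most other genes of the same cells.

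**Figure D1:**
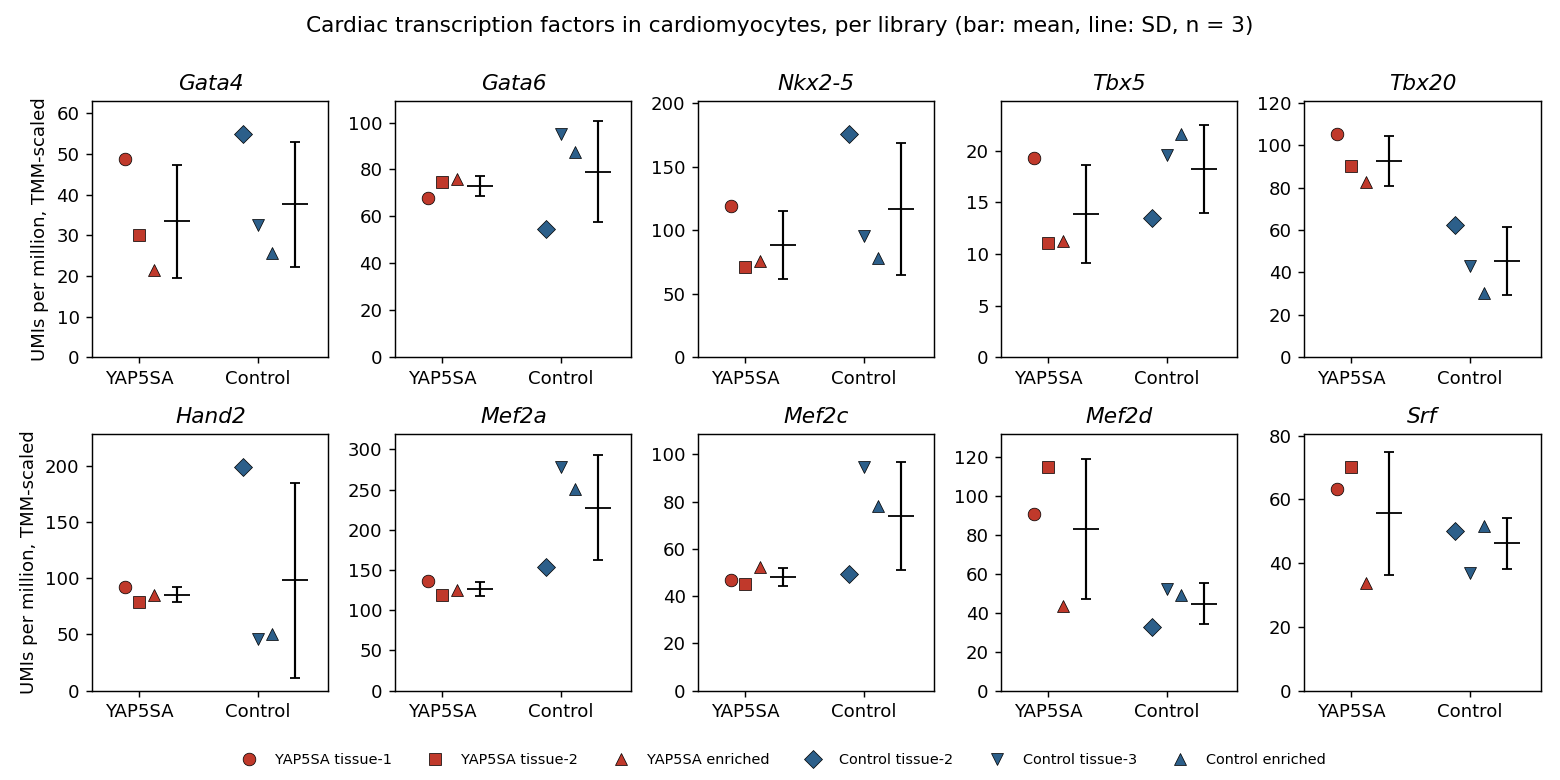
Level of each transcription factor in cardiomyocytes, as scaled CPM (vertical axes, each from 0), for the 3 YAP5SA libraries (red, left) and the 3 Control libraries (blue, right); the horizontal bar is the mean and the line the SD. Tbx20 and Mef2a show no overlap between the genotypes, and the Control tissue-2 library (diamond) is far above its group for Hand2 and Nkx2-5.

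**Figure D2:**
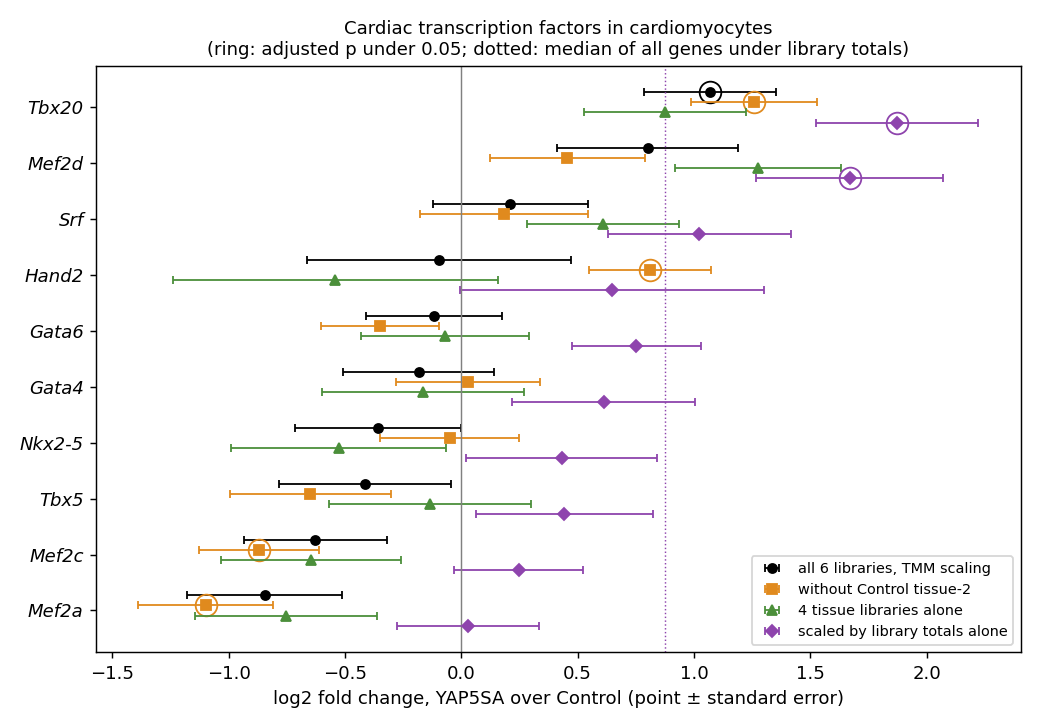
Log2 fold change, YAP5SA over Control, of each transcription factor in cardiomyocytes with its standard error (horizontal axis), from all 6 libraries, without Control tissue-2, from the 4 tissue libraries alone and with library totals alone as scaling. Rings mark an adjusted p under 0.05: Tbx20 alone from all 6 libraries, and Tbx20, Hand2, Mef2c and Mef2a without Control tissue-2, and Tbx20 and Mef2d with library totals alone.

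GATA4 and GATA6 bind GATA sequences in the promoters of many cardiac genes, and GATA4 is needed for the growth response of the adult heart. Gata4 had 48.7, 30.01 and 21.5 scaled CPM in the 3 YAP5SA libraries, against 54.9, 32.5 and 25.6 in the 3 Control libraries. The ranges of the 2 genotypes overlapped almost fully, and the log2 fold change was -0.18 (SE 0.33, edgeR adjusted p = 0.707). Gata6 had 68.0, 74.5 and 76.1 scaled CPM in the YAP5SA libraries in the same order, against 54.6, 95.1 and 87.5 in Control. All 3 YAP5SA values fell inside the Control range (log2 fold change -0.12, SE 0.29, edgeR adjusted p = 0.795). Control tissue-2 alone set the low end of that range, and Control tissue-3 and enriched lay above all YAP5SA libraries. Without Control tissue-2 the log2 fold change of Gata6 was -0.35 (edgeR adjusted p = 0.303).

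NKX2-5 is among the earliest markers of the heart lineage and stays on in cardiomyocytes for life. Its gene had 119, 71.1 and 75.5 scaled CPM in the 3 YAP5SA libraries, against 176, 95.5 and 78.2 in the 3 Control libraries. Control tissue-2 was the highest of the 6 libraries, and the groups overlapped (log2 fold change -0.36, SE 0.36, edgeR adjusted p = 0.487). Without that library the log2 fold change of Nkx2-5 was -0.049 (edgeR adjusted p = 0.912). HAND2, known for the right ventricle and its outflow in the embryo, showed the same library apart more strongly. Hand2 had 92.0, 78.9 and 84.8 scaled CPM in YAP5SA, against 199 in Control tissue-2 and 45.9 and 50.2 in Control tissue-3 and enriched. The YAP5SA libraries lay close together, between Control tissue-2 and the other two Control libraries. The log2 fold change of Hand2 was -0.10 (SE 0.57, edgeR adjusted p = 0.917) with all libraries and 0.81 (edgeR adjusted p = 0.0342) without Control tissue-2, so this library decides both its direction and its call.

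TBX5, a partner of GATA4 and NKX2-5 that keeps the atrial and conduction programmes, had the fewest UMIs of the 10, 288 over all cardiomyocytes. Tbx5 had 19.3, 11.1 and 11.2 scaled CPM in the 3 YAP5SA libraries, against 13.5, 19.6 and 21.6 in the 3 Control libraries, with overlap (log2 fold change -0.41, SE 0.37, edgeR adjusted p = 0.435). The overlap rests on Control tissue-2, and without it the log2 fold change of Tbx5 was -0.65 (edgeR adjusted p = 0.164). TBX20 acts as an activator and as a repressor in adult cardiomyocytes, and its loss there leads to heart failure in mice. Tbx20 had 105, 90.0 and 82.5 scaled CPM in the 3 YAP5SA libraries. It had 62.5, 43.2 and 30.5 in the 3 Control libraries. Every YAP5SA library lay above every Control library, and within each preparation as well. The log2 fold change was 1.07 (SE 0.28, edgeR adjusted p = 0.0323), and 48.1% of all genes tested showed no overlap between the genotypes either.

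In the 4 tissue libraries alone the log2 fold change of Tbx20 was 0.88 (edgeR adjusted p = 0.125), and the enriched preparation had 1 library of each genotype. The call for Tbx20 needs all libraries but Control tissue-2. Without that library Tbx20 passed at 1.26 (edgeR adjusted p = 0.00537). Leaving out YAP5SA tissue-1, YAP5SA tissue-2, YAP5SA enriched, Control tissue-3 or Control enriched kept the estimate between 0.85 and 1.21, with edgeR adjusted p between 0.0973 and 0.132. Fibroblasts carry Tbx20 too, and the summed level of 6 fibroblast markers in the cardiomyocytes was 314 to 435 CPM in YAP5SA and 69.8 to 350 CPM in Control. In cardiomyocytes without a UMI of these markers the log2 fold change of Tbx20 was 1.12 (SE 0.33, edgeR adjusted p = 0.0398), where 21.7% of all genes were called in either direction. The libraries were annotated in 2 ways: overlapping genes carry a joined name in 4 of them and single names in YAP5SA enriched and Control tissue-3. In the 4 libraries with joined names the estimate of Tbx20 was 0.61 (edgeR adjusted p = 0.0911). Their only enriched library is a Control, so with the preparation term that estimate rests on Control tissue-2 against the 2 YAP5SA tissue libraries. Between the libraries with single names the values were 82.5 and 43.2 scaled CPM. Those libraries differ in preparation as well as genotype, so the 2 cannot be told apart there. No name of the 10 genes was joined with another.

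The promoter of Tbx20, the gene that was called, is given here with 250 bases before and 50 after its annotated start (RefSeq, GRCm38.p6, chr9:24774254-24774553, minus strand, read 5′ to 3′ on the gene's strand). Both strands were searched for the TEAD sequence GGAATG, the GATA sequence GATAA, the CArG box bound by SRF and the MEF2 box. None of the 4 occurred in this window, so it holds no capitals.
Tbx20: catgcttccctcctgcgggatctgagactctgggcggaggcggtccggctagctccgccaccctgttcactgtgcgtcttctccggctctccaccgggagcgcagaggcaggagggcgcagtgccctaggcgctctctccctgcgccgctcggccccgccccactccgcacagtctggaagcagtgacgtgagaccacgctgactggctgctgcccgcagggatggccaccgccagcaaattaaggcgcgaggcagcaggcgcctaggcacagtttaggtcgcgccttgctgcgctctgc

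Of the 10 genes 7 had such a window, and Gata4, Gata6 and Tbx5 had none. GGAATG was found in 14.7% of all 32851 windows, GATAA in 25.4%, the CArG box in 1.63% and the MEF2 box in 1.86%. Among the 9 windows of the 7 genes, GGAATG occurred in 1 of the 3 windows of Mef2c, the GATA sequence in Hand2 and in another window of Mef2c, the CArG box in Srf and the MEF2 box in Mef2a.

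The MEF2 proteins bind the same A/T-rich sequence in muscle promoters, and class IIa histone deacetylases hold them in check. Mef2a had 136, 119 and 125 scaled CPM in the 3 YAP5SA libraries, against 154, 277 and 251 in the 3 Control libraries. All YAP5SA values lay below all Control values, but the log2 fold change of -0.84 (SE 0.33) missed the threshold (edgeR adjusted p = 0.1004). With DESeq2 it was called lower (adjusted p = 0.0465), and so it was by edgeR without Control tissue-2 (-1.10, adjusted p = 0.0141). Mef2c had 46.7, 45.02 and 52.3 scaled CPM in YAP5SA, against 49.3, 94.5 and 78.2 in Control. Only Control tissue-2 lay within the YAP5SA range, and the log2 fold change was -0.63 (SE 0.31, edgeR adjusted p = 0.166). Without Control tissue-2 it was -0.87 (edgeR adjusted p = 0.0235). Mef2d had 90.7, 114 and 43.5 scaled CPM in the 3 YAP5SA libraries, against 32.5, 52.1 and 49.2 in the 3 Control libraries. Both YAP5SA tissue libraries lay above all Control libraries and the YAP5SA enriched library did not (log2 fold change 0.80, SE 0.39, edgeR adjusted p = 0.162). In the tissue libraries alone the log2 fold change of Mef2d was 1.28 (edgeR adjusted p = 0.0594), and without Control tissue-2 it was 0.46 (edgeR adjusted p = 0.304).

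Mef2a and Mef2c are high in macrophages and smooth muscle cells, and macrophage markers (7 genes, of which 6 or 7 were detected per library) summed to 323 to 812 CPM in YAP5SA and 19.1 to 250 CPM in Control cardiomyocytes. Of the 7 macrophage markers 2 were called higher in YAP5SA and 0 lower. Epicardial markers summed to 36.3 to 67.0 CPM in YAP5SA and 1.74 to 3.83 CPM in Control, and all 3 that could be tested were called higher. Endocardial markers summed to 45.3 to 57.1 CPM in YAP5SA and 9.37 to 19.0 CPM in Control, with 1 of 2 tested called higher. Endothelial markers overlapped between the genotypes, at 317 to 761 CPM in YAP5SA and 236 to 394 CPM in Control, and 0 of 6 were called. Monocyte markers summed to at most 18.3 CPM in YAP5SA and 8.52 CPM in Control, and T or B cell markers to at most 0.793 CPM in YAP5SA and 1.18 CPM in Control. The part of such RNA in the MEF2 values was not tested.

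The makeup of the family within a library needs no scaling between libraries. It was chosen for description after the values of the members were seen, and is given with no test. Mef2d made up 33.2%, 41.1% and 19.8% of the UMIs of Mef2a, Mef2c and Mef2d together in the 3 YAP5SA libraries (95% Clopper-Pearson intervals 28.6 to 38.0%, 36.8 to 45.6% and 17.5 to 22.2%). It made up 13.8%, 12.3% and 13.0% in the 3 Control libraries (11.4 to 16.6%, 10.9 to 13.8% and 10.7 to 15.6%). The Control libraries were nearly equal, Control tissue-2 included, while the YAP5SA libraries all lay higher and spread widely. Mef2a made up 49.8%, 42.7% and 56.5% in YAP5SA and 65.3%, 65.4% and 66.4% in Control. The share of Mef2c was 17.1%, 16.2% and 23.7% in YAP5SA and 20.9%, 22.3% and 20.6% in Control, with overlap. Without the cells of YAP5SAcm the share of Mef2d was 20.5%, 19.3% and 13.9% in YAP5SA and 13.1%, 12.1% and 13.1% in Control. Within YAP5SAcm it was 39.2%, 47.5% and 24.0% in YAP5SA and 24.4%, 31.8% and 0% in Control, the Control values from 45, 22 and 4 UMIs of the family. Within CM1 it was 18.3%, 18.8% and 9.62% in YAP5SA and 12.3%, 11.4% and 10.3% in Control. The genotypes overlapped inside both of these clusters. In CM3 they did not, with a share of 23.4%, 21.1% and 22% in YAP5SA and 15.9%, 15.1% and 20.3% in Control. These CM3 values come from 38 (YAP5SA tissue-2) to 364 (Control tissue-3) UMIs of the family. CM2 had 21.4%, 14.3% and 21.1% in YAP5SA and 15.8%, 11.5% and 7.69% in Control, with overlap. The 14.3% comes from 7 UMIs of the family. In cardiomyocytes without a UMI of the fibroblast markers the share was 27.9%, 40.1% and 19.3% in YAP5SA and 13.3%, 12.7% and 13.5% in Control. The intervals cover counting error only.

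**Figure D3:**
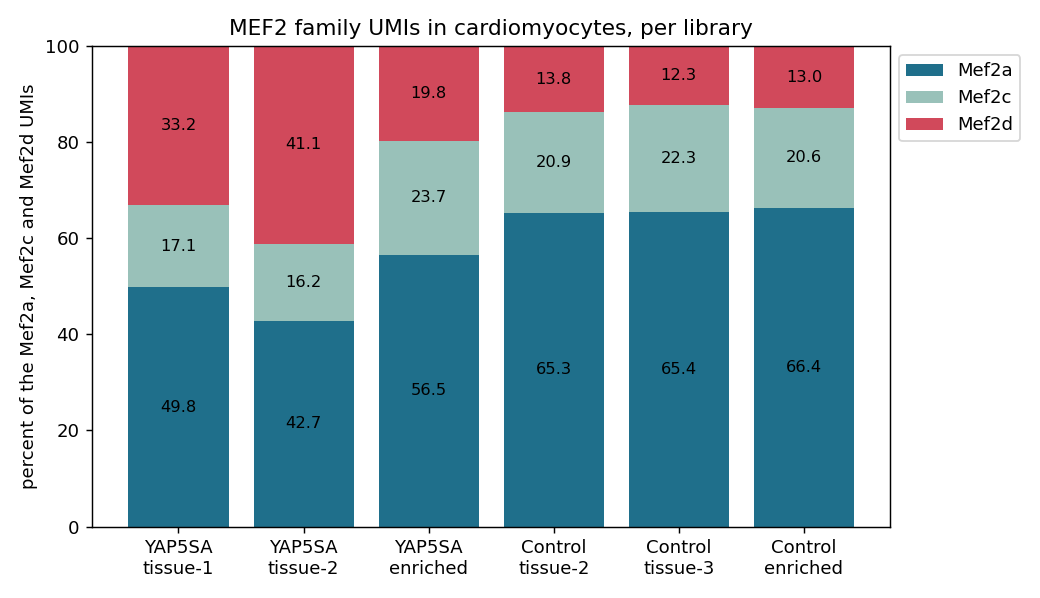
Percent of the UMIs of Mef2a, Mef2c and Mef2d that belong to each gene (vertical axis), in the cardiomyocytes of the 3 YAP5SA libraries (left) and the 3 Control libraries (right). Mef2d makes up 19.8% to 41.1% in YAP5SA and 12.3% to 13.8% in Control.

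The promoters of the 2 members of the family with opposite estimates are shown with the same window, and the capitals mark a MEF2 box, which spans the annotated start of Mef2a from position -2 (RefSeq, GRCm38.p6; Mef2a chr7:67372809-67373108, minus strand; Mef2d chr3:88142122-88142421, plus strand). None of the 4 motifs occurred in the Mef2d window.
Mef2a: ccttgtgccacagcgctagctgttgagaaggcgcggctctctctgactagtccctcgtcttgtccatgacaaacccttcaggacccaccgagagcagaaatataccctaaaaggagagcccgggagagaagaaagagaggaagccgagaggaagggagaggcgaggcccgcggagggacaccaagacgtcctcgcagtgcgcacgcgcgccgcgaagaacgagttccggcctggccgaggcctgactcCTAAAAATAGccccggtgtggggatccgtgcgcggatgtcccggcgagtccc
Mef2d: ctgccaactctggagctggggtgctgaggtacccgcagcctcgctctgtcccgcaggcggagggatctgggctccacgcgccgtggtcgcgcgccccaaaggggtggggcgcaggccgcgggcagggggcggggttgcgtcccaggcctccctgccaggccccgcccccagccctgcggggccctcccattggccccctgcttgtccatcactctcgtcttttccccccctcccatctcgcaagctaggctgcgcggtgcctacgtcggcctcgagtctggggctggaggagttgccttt

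SRF binds CArG boxes and, with its actin-regulated partners MRTF-A and MRTF-B or with myocardin, switches on cytoskeletal and muscle genes. Srf had 63.3, 70.0 and 33.7 scaled CPM in the 3 YAP5SA libraries, against 49.97, 37.01 and 51.6 in the 3 Control libraries. The YAP5SA tissue libraries were the highest and the YAP5SA enriched library the lowest of the 6 (log2 fold change 0.21, SE 0.33, edgeR adjusted p = 0.670). The window at the start of Srf (RefSeq, GRCm38.p6, chr17:46556113-46556412, minus strand) is shown because it holds 2 CArG boxes, in capitals, from positions -82 and -62 before the start.
Srf: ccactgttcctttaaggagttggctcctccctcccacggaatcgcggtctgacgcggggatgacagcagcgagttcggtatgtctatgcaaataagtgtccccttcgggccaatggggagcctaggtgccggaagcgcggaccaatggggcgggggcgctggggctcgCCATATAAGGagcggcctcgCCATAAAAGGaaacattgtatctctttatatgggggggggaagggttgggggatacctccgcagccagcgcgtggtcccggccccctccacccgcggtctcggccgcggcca

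The cluster YAP5SAcm held 212 of 343, 203 of 282 and 481 of 1004 cardiomyocytes in the 3 YAP5SA libraries. The genes were therefore also compared within clusters. Tbx20 in that cluster had 164, 147 and 147 unscaled CPM in the 3 YAP5SA libraries, against 88.9, 83.5 and 37.0 in the 3 Control libraries, the last from 1 UMI in 16 cells. In CM1 it had 84.7, 70.6 and 41.2 unscaled CPM in YAP5SA, against 46.5, 21.6 and 16.9 in Control. The groups stood apart in the cluster YAP5SAcm and overlapped in CM1. The fitted log2 fold changes of Tbx20 were 0.69 (SE 0.51, edgeR adjusted p = 0.492) in YAP5SAcm, 0.84 (SE 0.37, edgeR adjusted p = 0.377) in CM1 and 0.29 (SE 0.45, edgeR adjusted p = 0.780) in CM3, and in CM2 it had too few UMIs to be tested. Over CM1, CM2 and CM3 together, without YAP5SAcm, it was 0.72 (SE 0.35, edgeR adjusted p = 0.322), where 0.17% of all genes were called. Mef2d in YAP5SAcm had 146, 196 and 70.0 unscaled CPM in YAP5SA, against 75.2, 83.5 and 0 in the 3 Control libraries (log2 fold change 0.92, SE 0.52, edgeR adjusted p = 0.327). The 0 stands for 16 cells and allows up to 3 UMIs.

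None of the 10 genes was called in any of the authors' clusters, of which 16 had enough libraries for a fit and 15 left at least 1 of the genes to test. The share of all genes called was 0.0243% in CM1, 4.49% in CM2, 0.343% in CM3 and 7.62% in YAP5SAcm, and in the other clusters 2.56% in CF4, 1.68% in Mac4, 0.863% in Mac1, 0.0659% in Mac2 and 0% in the rest. With DESeq2 none of the 10 genes was called in a cluster either.

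The share of cardiomyocytes with at least 1 UMI was compared after thinning each cell to 1000 UMIs, which kept 84.0% to 88.4% of the cells of the YAP5SA libraries and 97.2% to 98.6% of those of the Control libraries. Tbx20 was found in 14.9%, 11.8% and 9.35% of the thinned cardiomyocytes of the 3 YAP5SA libraries, against 6.43%, 4.24% and 2.67% in the 3 Control libraries. Thinned macrophages, which should lack it, had 0.27% to 0.55% in YAP5SA and 0% to 0.71% in Control. Mef2d was found in 14.6%, 16.7% and 6.19% of YAP5SA and 3.04%, 5.19% and 4.19% of Control cardiomyocytes. Gata6, with a log2 fold change below 0 after TMM scaling, was found in 7.99% to 8.57% of YAP5SA and 5.54% to 6.31% of Control cardiomyocytes, so a separation of these shares does not single out Tbx20 and Mef2d. Unthinned, Tbx20 was found in 31.8%, 31.9% and 25.6% of YAP5SA and 25.5%, 15.4% and 5.71% of Control cardiomyocytes. A thinned share moves with library totals, not with TMM scaling.

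Across the heart's cell types the 10 genes fell into different patterns, given here as mean unscaled CPM over the libraries with at least 10 cells of a cluster. Nkx2-5 had 87.3 to 130 CPM in the 4 cardiomyocyte clusters and 1.40 to 14.5 CPM in the other 13. Tbx5 had 8.98 to 32.1 CPM in the cardiomyocyte clusters and at most 10.9 CPM (EpiC) elsewhere. The lowest of these cardiomyocyte means, that of YAP5SAcm, holds 17.4, 10.7 and 13.8 CPM in the 3 YAP5SA libraries. In the 3 Control libraries it holds 0, 11.9 and 0 CPM, the 11.9 from 1 UMI. No library had more than 1 UMI of Tbx5 in EpiC. Gata6 was highest in endocardial cells (191 ± 74.4 CPM, SD, n = 6 libraries) and epicardial cells (169 ± 36.1 CPM, n = 5), and Hand2 in endocardial cells (182 ± 102 CPM, n = 6). The Gata6 levels of these 2 cell types did not differ beyond their spread. By its mean, Tbx20 was highest in fibroblasts of the cluster CF3 (123 CPM), with 111 CPM in YAP5SAcm and 3.53 to 17.0 CPM in macrophages and monocytes. The order of CF3 and YAP5SAcm differed between the genotypes. In the 3 YAP5SA libraries Tbx20 had 101, 84.0 and 106 CPM in CF3, against 164, 147 and 147 CPM in YAP5SAcm. In Control tissue-2 and tissue-3 it had 111 and 214 CPM in CF3, against 88.9 and 83.5 CPM in YAP5SAcm. Control enriched had 37.0 CPM in YAP5SAcm, from 1 UMI. Mef2c was highest in smooth muscle cells (406 ± 86.2 CPM, n = 6), followed by the macrophage clusters Mac4, Mac2 and Mac1 (370, 354 and 321 CPM), and Mef2a was highest in the macrophage cluster Mac2 (317 CPM), with 294 ± 56.3 CPM (n = 6) in endothelial cells. Mef2d was highest in YAP5SAcm (95.2 CPM) and CM3 (75.3 CPM), and Srf in CM3 (101 CPM) and YAP5SAcm (76.2 CPM). The Gata4 levels of YAP5SAcm (63.0 ± 50.7 CPM, SD, n = 6) and endocardial cells (59.6 ± 41.2 CPM, n = 6) did not differ beyond their spread, and that of YAP5SAcm holds 150.5 CPM in Control tissue-2, against 34.1 to 73.7 CPM in the 3 YAP5SA libraries and 71.6 and 0 CPM in Control tissue-3 and enriched. Cardiomyocyte markers summed to 1222 CPM in macrophages, and the part of free RNA in low values such as those of Nkx2-5 there was not tested.

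**Figure D4:**
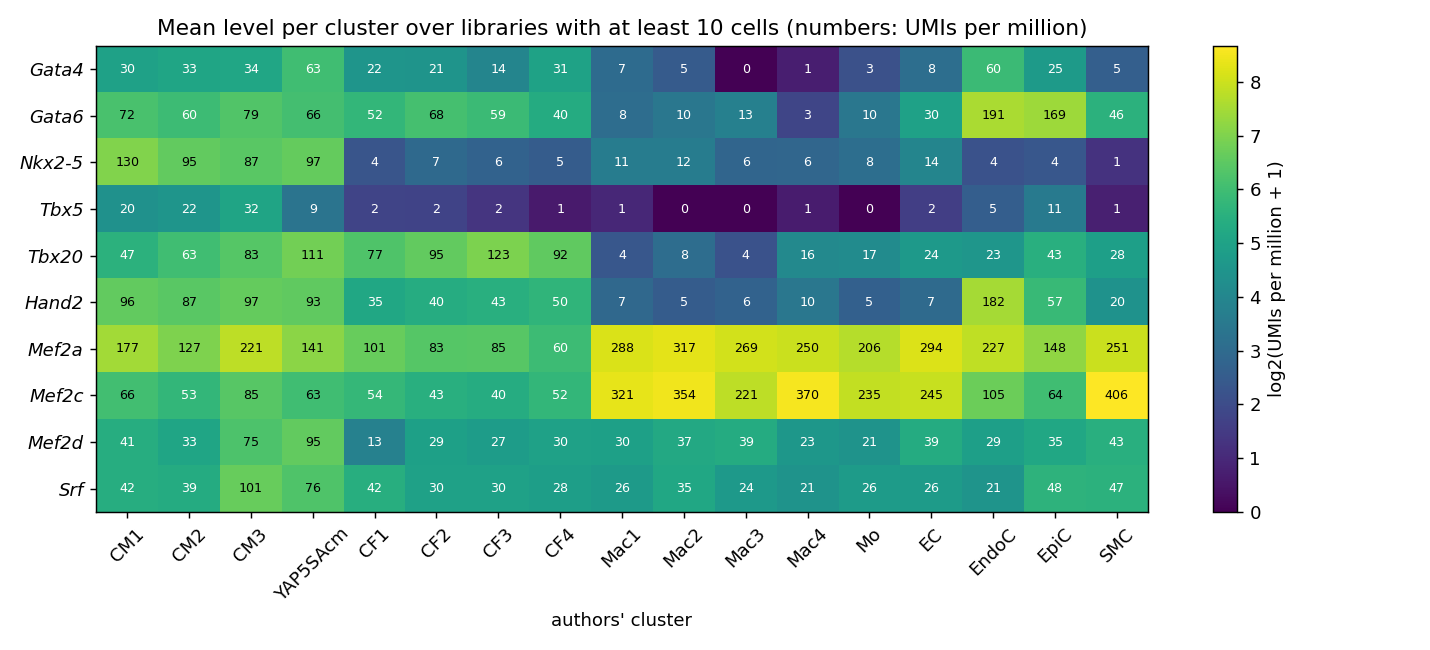
Mean level of each transcription factor (rows) in the authors' 17 clusters (columns) in unscaled CPM over libraries with at least 10 cells; colour is on a log2 scale. Nkx2-5 is highest in the 4 cardiomyocyte clusters and Tbx5 in CM1, CM2 and CM3, Mef2a and Mef2c in macrophages, endothelial and smooth muscle cells, and Tbx20 in fibroblasts and YAP5SAcm.

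By Pearson's correlation of log2(CPM + 5) over the 17 clusters, among 10970 features that reached 20 CPM in a cluster, Gata4 and Hand2 were most like each other (r = 0.92). The genes most like Nkx2-5 were Nppa, Tnnc1 and Acta1 (r = 0.98 each), all genes of heart muscle. Those most like Gata6 were Tfpi, Meis2 and Bcr (r = 0.95, 0.95 and 0.91), those most like Tbx5 were Pgm2, Decr1 and Slc25a20 (0.96, 0.95 and 0.95), and those most like Tbx20 were Rhobtb3, Plod2 and Pdzrn3 (0.93, 0.92 and 0.92). Mef2a was most like Slc6a6, Mef2c most like Ahr, Mef2d most like Kif1b and Srf most like Zfp568 (0.91, 0.92, 0.89 and 0.90). The clusters come from the same 6 libraries, so these are descriptions.

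The second comparison set YAP5SA against Control in the 7 other cell classes. None of the 10 genes was called in any of them by edgeR or by DESeq2. In fibroblasts 9 of the 10 could be tested and 2.21% of all genes were called; in the other 6 classes 0% of all genes were called by edgeR. At an unadjusted p under 0.05 there were 1187 genes in macrophages, 283 in monocytes, 540 in endothelial, 107 in endocardial, 109 in epicardial and 46 in smooth muscle cells, and DESeq2 called, with adjusted p, 98, 22, 33, 1, 0 and 0 in the same order. Macrophages, monocytes and epicardial cells had 2 Control libraries, since the enriched one held 0, 0 and 7 of these cells. Tbx20 had 98.6, 68.0 and 95.8 unscaled CPM in the fibroblasts of the 3 YAP5SA libraries, against 112, 167 and 112 in those of the 3 Control libraries, the last from 1 UMI in 10 cells. The log2 fold change was -0.63 (SE 0.58, edgeR adjusted p = 0.9999). Without Control tissue-2, when the Control fibroblasts are those of tissue-3 and the 10 cells of the enriched library, Mef2c was called lower (-1.40, edgeR adjusted p = 0.0283). In that fit 644 genes were called higher and 517 lower of 11069. Mef2c had 339 ± 56.3 scaled CPM in YAP5SA (n = 3) and 364 ± 192 in Control (n = 2) macrophages (log2 fold change -0.20, SE 0.44, edgeR adjusted p = 0.931).

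Whether the genotype effect differed between cardiomyocytes and another class was tested in 1 model with the library as a block. For Tbx20 it differed between cardiomyocytes and fibroblasts (difference of the log2 fold changes 1.499, SE 0.47, edgeR adjusted p = 0.0139), where 17.4% of all genes were called. For Mef2d it differed between cardiomyocytes and macrophages (1.49, SE 0.48, edgeR adjusted p = 0.0363), where 12.9% of all genes were called. Mef2a lay on the other side of 0 against macrophages without passing (-1.13, SE 0.40, edgeR adjusted p = 0.0539). It passed with DESeq2 (-1.02, adjusted p = 0.0435) and by edgeR in the libraries with joined names alone (-1.07, adjusted p = 0.0201). Against endothelial cells, where 14.3% of all genes were called, none of the 10 passed. The call for Tbx20 was lost without YAP5SA tissue-1 (edgeR adjusted p = 0.147), YAP5SA tissue-2 (0.159) or Control tissue-3 (0.255). It was also lost with tissue libraries only (0.0566), with the 4 joined-name libraries only (0.0730) and without the library block (0.0812). The call for Mef2d was lost without YAP5SA tissue-1 (0.143), YAP5SA tissue-2 (0.112), Control tissue-2 (0.177) or Control tissue-3 (0.0991). It was also lost with DESeq2 (0.0674) and without the library block (0.213). In macrophages Mef2d had 25.1, 27.8 and 22.3 unscaled CPM in the 3 YAP5SA libraries, against 30.4 and 47.7 in Control tissue-2 and tissue-3.

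The genes around these factors were read from 4 lists, each set beside the median over all genes tested in cardiomyocytes, a log2 fold change of 0.04. Of all genes tested there, 13.9% were called higher and 12.5% lower. Of 27 tested SRF target genes 9 rose and 5 fell, with a median of 0.88. This median was not stable: dropping 1 library gave 0.39 (Control enriched) to 1.77 (Control tissue-2). Its sign reversed to -0.12 when only joined-name libraries were fitted, where all genes had a median of 0.07. Only Control tissue-2 stands for Control in that estimate. Tagln (transgelin), Myh11 (smooth muscle myosin) and Myh9 (a non-muscle myosin) had the smallest p, with log2 fold changes of 4.91, 4.39 and 3.66. Tagln had 126, 71.2 and 34.5 scaled CPM in the 3 YAP5SA libraries, against 3.62, 3.11 and 0.985 in the 3 Control libraries, with no overlap. Those that fell were Smtn, Lmod2, Actc1, Fhl2 and Fos, of which Lmod2 and Actc1 are parts of the cardiac thin filament; Fos is an immediate early gene. Without YAP5SA tissue-1, 6 of these targets rose and 0 fell, without YAP5SA tissue-2, 4 and 0, and without Control tissue-2, 17 and 6. Leaving out YAP5SA enriched or Control enriched gave 8 and 2, and leaving out Control tissue-3 gave 8 and 3. The counts of every list move with the number of all genes called in the same fit. Without YAP5SA tissue-1 that was 455 higher and 70 lower of 11562, without YAP5SA tissue-2 194 and 4 of 11506, and without YAP5SA enriched 944 and 653 of 11361. Without Control tissue-2 it was 2384 higher and 2209 lower of 11594, without Control tissue-3 895 and 704 of 11634, and without Control enriched 920 and 662 of 11964. The list shares 3 of the 6 smooth muscle or pericyte markers, whose summed level in cardiomyocytes was 3036 to 3514 CPM in YAP5SA and 78.8 to 198 CPM in Control. All 6 of these markers were tested, and 3 were called higher and 0 lower. In YAP5SA most of the sum was Acta2 (2859 to 3210 CPM in YAP5SA, 32.98 to 167.5 in Control). The part of other cells' RNA in these values was not tested.

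Of 30 tested target genes of GATA4, NKX2-5, TBX5 and MEF2, 1 rose and 13 fell, with a median of -1.52. The smallest p belonged to Ckm (muscle creatine kinase), Pln (phospholamban, the inhibitor of the calcium pump) and Tnni3 (cardiac troponin I), with log2 fold changes of -2.87, -3.48 and -3.07. Pln had 748, 459 and 1211 scaled CPM in the 3 YAP5SA libraries, against 3604, 11808 and 10348 in the 3 Control libraries. The gene that rose was Adora1, an adenosine receptor (2.13, edgeR adjusted p = 0.0141). With library totals alone 2 rose and 7 fell, against an all-gene median of 0.87. Without YAP5SA tissue-1 or YAP5SA tissue-2 none of these targets passed by edgeR (0 rose and 0 fell), with medians of -1.55 and -1.49, while 3396 and 3049 genes of the whole table had an unadjusted p under 0.05. Without Control tissue-2, 4 rose and 18 fell. Without YAP5SA enriched or Control enriched, 1 rose and 5 fell, and without Control tissue-3, 2 rose and 10 fell.

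Of 31 tested cofactors and regulators of the 10 factors, 6 rose and 6 fell, with a median of 0.50. Among all genes 13.9% rose and 12.5% fell. These counts, and those of the other heart transcription factors, are therefore not read as a result about the lists. Lmcd1, which binds GATA6 and restrains it, rose by 3.71 on the log2 scale, Hdac7, a class IIa deacetylase that represses MEF2, by 2.67, and Hopx, a homeodomain protein that opposes SRF, had a log2 fold change of -2.59. Lmcd1 had 789, 819 and 589 scaled CPM in the 3 YAP5SA libraries, against 93.5, 42.3 and 36.9 in the 3 Control libraries. Mrtfa and Hdac5 also rose (2.32 and 0.97), and Smyd1, a muscle methyltransferase, fell by 1.598 on the same scale. With library totals alone 18 rose and 1 fell. Without Control tissue-2, 10 rose and 7 fell, without either YAP5SA tissue library 1 and 0, without either enriched library 3 and 1, and without Control tissue-3, 2 and 3. Of 24 other heart transcription factors tested, 3 rose and 5 fell, with a median of -0.19. The sign of that median was not stable: it ran from -0.49 to 0.38 with 1 library left out. It was 0.23 in the libraries with joined names and 0.27 with no filter on low counts. Zfhx3 rose by 2.97, Tead1, a DNA-binding partner of YAP, by 2.08 and Myc by 1.96. Tead1 had 420, 458 and 291 scaled CPM in YAP5SA, against 79.6, 93.5 and 100.4 in Control. Those that fell were Prox1, Mitf, Irx4, Esrrg and Foxp1. With library totals alone 10 rose and 0 fell in this list, and 12 and 2 among the SRF target genes. Without Control tissue-2, 4 of these factors rose and 8 fell, without either YAP5SA tissue library 1 and 0, without either enriched library 2 and 1, and without Control tissue-3, 3 and 0.

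**Figure D5:**
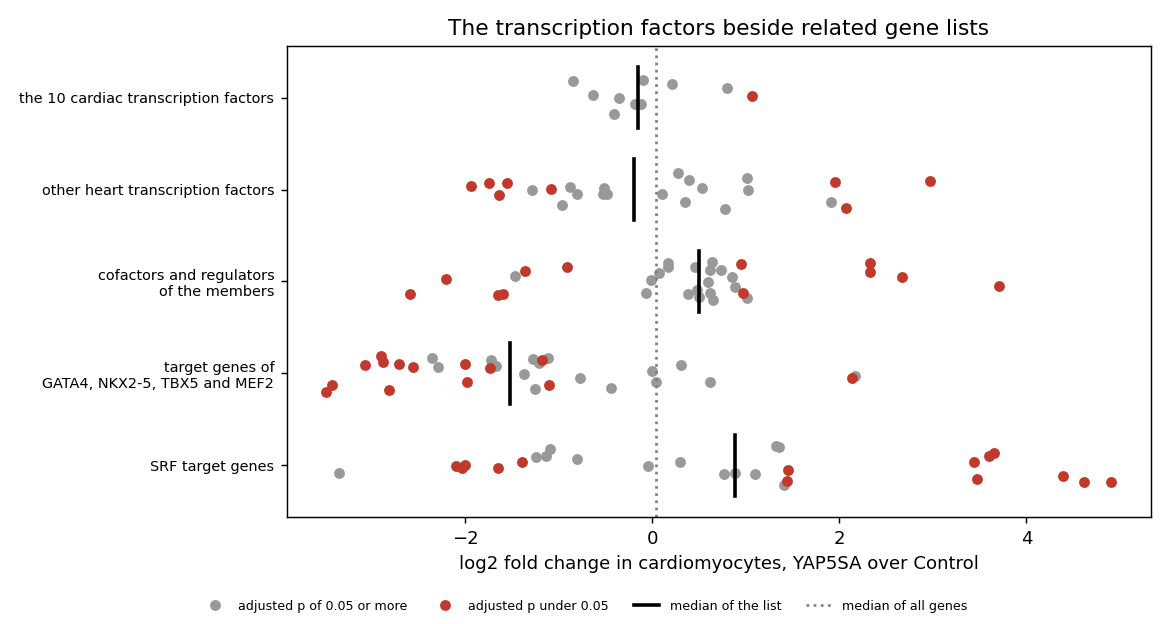
Log2 fold change in cardiomyocytes, YAP5SA over Control, of the 10 transcription factors (top row) and of the tested genes of 4 lists (lower rows); red points passed an adjusted p of 0.05, the black line is the median of a list and the dotted line the median of all genes, 0.04. The 10 factors lie between -0.84 and 1.07, and the target genes of GATA4, NKX2-5, TBX5 and MEF2 have a median of -1.52.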

How the data were processed

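UMI counts came from the authors' deposited raw table, which gives whole numbers for 22281 features in 21706 cells, and the deposited table of cells gives each cell's library, cluster and mitochondrial fraction as computed by the authors. The submitters' processing notes name Picard, STAR and Seurat 2.3.4; the genome build and annotation are not given in the sources used here. The tables number the YAP5SA tissue libraries 1 and 2 and the labels 2 and 3; the genotype is given by both. A deposited table of scaled values was not used.

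The 861 joined names of overlapping genes were merged with their parts (21278 features), and 1222 features found under 1 way of annotation were not tested. Counts were summed per library and class or cluster, with at least 10 cells. Genes that passed filterByExpr went into the quasi-likelihood F test of edgeR 4.0.16 (R 4.3.3; TMM, robust dispersion, preparation and genotype as terms; Benjamini-Hochberg, 0.05), with DESeq2 1.42.0 as an alternative. Standard errors are the log2 fold change divided by the square root of F. The procedure was tested on simulated data. Depth per library ran from 3382656 to 13483791 UMIs, of which 1059553 to 7313337 lay in cardiomyocytes, and limits the precision of low genes. Doublets were not removed. Cells were thinned to 1000 UMIs by hypergeometric draws for shares with a UMI (Python 3.11.15, numpy 2.4.6); intervals are exact Clopper-Pearson at 95%.

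The members, lists and tests were chosen with earlier results of these data known. Named beside the 10 members were the 3 genes of each list with the smallest p, the 3 genes most like each member over the clusters, and class markers; the other list genes named, the MEF2 shares, Yap1 and the per-library values of Nppa and Acta2 were chosen after their values were seen. Alternatives were other scalings, no filter, no preparation term, tissue libraries alone, each way of naming, each library left out, and subsets of cells. For differences between classes the library block was left out in place of the preparation term.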

Additional observations from a re-analysis of the deposited data

Results flagged for a closer look

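The effect of the genotype on Tbx20 differed between cardiomyocytes and fibroblasts by 1.499 on the log2 scale (SE 0.47, edgeR adjusted p = 0.0139). It was flagged because the difference between 2 cell classes under the same contrast passed its own test. The estimate was 1.07 in cardiomyocytes and -0.63 in fibroblasts, and over the other settings the adjusted p ran from 0.000657 to 0.255.

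The effect on Mef2d differed between cardiomyocytes and macrophages by 1.49 (SE 0.48, edgeR adjusted p = 0.0363), and was flagged for the same reason. The estimate was 0.80 in cardiomyocytes and -0.53 in macrophages, neither of which passed alone. Over the other settings the adjusted p ran from 0.00264 to 0.213.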

How the results depend on the processing

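No paired analysis was possible because the YAP5SA tissue libraries are numbered 1 and 2 in the tables and 2 and 3 in the labels, so the numbers could not be matched.

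The number of the 10 genes called in cardiomyocytes (1) was 2 with library totals alone and with DESeq2, 3 in the libraries with joined names alone, where the estimate rests on Control tissue-2 against the 2 YAP5SA tissue libraries, and 0 in the tissue libraries alone and without the cells of YAP5SAcm. It ran from 0 to 4 when each library was left out in turn. Of all genes, 4518, 4389, 1763 and 16 were called with library totals alone, in the libraries with joined names, in the tissue libraries alone and without YAP5SAcm, in place of 2888, and from 198 (without YAP5SA tissue-2) to 4593 (without Control tissue-2) with 1 library left out. The number of all genes called with DESeq2 is not given here, so nothing is read from its 2 calls. Genes of the 4 lists called were 26 in the tissue libraries alone and 2 without YAP5SAcm, in place of 46, and 6 to 72 with 1 library left out. With 1 library left out, 0 to 1 calls of the 10 genes were made in the other classes and 0 to 7 in the clusters, all of them without Control tissue-2. Of these 7, 6 lie in CF1, CF2, CF3 and Mac2, where Control is then tissue-3 alone, 1 library assumed to vary like the others, and where 145 genes were called higher and 184 lower of 3344, 397 and 308 of 7745, 416 and 345 of 9888 and 248 and 282 of 8604, so nothing is read from them. There was 1 call in the clusters with library totals alone and 1 in the libraries with joined names. The 2 calls for a difference from cardiomyocytes became 7 with library totals alone and 0 without the library block. With at least 30 cells only the fit with fibroblasts changed, and Tbx20 passed in it (edgeR adjusted p = 0.0399). The libraries in the fits with macrophages and endothelial cells all held more cells than that, so the call for Mef2d stood. With 1 library left out the number of calls ran from 0 to 5. The cause was not tested.

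Directions reversed with library totals alone, where most genes lie above 0, for Gata4 (0.61), Gata6 (0.75), Nkx2-5 (0.43), Tbx5 (0.44), Mef2a (0.028), Mef2c (0.25) and Hand2 (0.65). Without the cells of YAP5SAcm, Nkx2-5 (0.22), Tbx5 (0.53) and Hand2 (0.16) reversed, in the libraries with joined names Gata6 (0.35) and Tbx5 (0.12), and without cells with a fibroblast marker, an alternative chosen after seeing the data, Gata4 (0.080) and Hand2 (0.037). With 1 library left out Gata4 reversed without YAP5SA tissue-2 (0.0086) and Control tissue-2 (0.029), Gata6 without Control tissue-3 (0.097), Hand2 without YAP5SA tissue-1 (0.0089), YAP5SA tissue-2 (0.12) and Control tissue-2 (0.81), and Srf without Control tissue-3 (-0.066). The values with 1 library left out ran from -0.42 to 0.029 for Gata4, -0.35 to 0.097 for Gata6, -0.55 to 0.81 for Hand2 and -0.066 to 0.62 for Srf. Tbx20 and Mef2d kept their direction in cardiomyocytes under every alternative run. Depth limits the low genes most, and the median standard error over the 10 genes was 0.33.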
